A study of Mus musculus with 12 samples.

Results

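The mitochondrial ribosomal protein genes were described in mouse bone marrow neutrophils kept with or without granulocyte colony-stimulating factor (G-CSF), the cytokine that drives neutrophil production. Members were taken by name, as every gene symbol beginning with Mrpl or Mrps and a digit, leaving out names marked as pseudogenes. No measured value entered this rule, but the members were chosen with earlier results of these data known. The rule gave 78 genes of the 13935 in the deposited table, 49 named for the large subunit (Mrpl) and 29 for the small subunit (Mrps), and all 78 had a mean of at least 10 normalized counts over the libraries and were tested. By structure, 26 of the 29 Mrps genes encode small subunit proteins. The products of Mrps30 and Mrps18a sit in the large subunit, and Mrps36 encodes a protein of the oxoglutarate dehydrogenase complex. Of the proteins, 48 have a bacterial counterpart and 29 are specific to mitochondria, and the genes lie on 17 chromosomes, 11 of them on chromosome 11.

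The mitochondrial ribosome makes the few proteins that the mitochondrial genome encodes, all of them subunits of the respiratory chain and ATP synthase. Its ribosomal RNAs are transcribed in the organelle, while every one of its proteins is encoded in the nucleus, made in the cytosol and imported. The ribosome has a small subunit, which reads the messenger RNA, and a large subunit, which joins amino acids and carries a stalk that recruits translation factors, a central protuberance and a tunnel through which the new protein leaves. Mature neutrophils have few mitochondria and draw most of their ATP from glycolysis, and their precursors in the marrow rely more on mitochondria.

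Cells carrying CD45, CD11b and Ly6G were sorted from femoral bone marrow and kept for 8 h in culture. The 4 groups had 3 libraries each: cells of LysMCre Socs3fl/fl mice with 10 ng/ml G-CSF, cells of the same genotype untreated, cells of Socs3 fl/fl mice with 10 ng/ml G-CSF, and cells of that genotype untreated. All mice carried Socs3 alleles flanked by loxP sites. Socs3 encodes an inhibitor of G-CSF receptor signalling, and in the LysMCre mice Cre recombinase is driven from the lysozyme M gene (Lyz2), which is active in neutrophils, monocytes and macrophages. The groups are called LysMcre-labelled and floxed below. The strain and age of the mice are not given, and nothing says whether libraries came from separate animals, so the p-values cover only the variation among the libraries at hand, which may be technical.

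The libraries held 19495754 to 26472118 reads recovered from the deposited values, and 3 reads were worth 2.57 to 3.54 normalized counts, which are gene counts divided by a size factor per library. Socs3, the targeted gene, had 35984, 37668 and 38354 normalized counts in the LysMcre-labelled G-CSF libraries and 21391, 18533 and 18588 in the floxed G-CSF libraries, so the gene's total count was not lower in the LysMcre-labelled libraries, and counts per gene do not show which exons the reads came from. Untreated cells had 252.5 to 313 in the LysMcre-labelled and 201 to 248 in the floxed libraries. Lyz2, the gene that carries Cre, had 507 to 637 and 5646 to 6602 normalized counts in LysMcre-labelled G-CSF and untreated libraries, against 44425 to 49035 and 219608 to 226031 in the floxed ones. The 3 libraries placed in the LysMcre-labelled G-CSF group are also called untreated in their titles. They were placed by their description, genotype and condition fields. The table's columns for LysMcre-labelled untreated replicates 2 and 3 both carry the number 3, so the numbers of these 2 libraries are uncertain wherever a result names or blocks on them. All 13 neutrophil markers were present, with summed levels of 1593740 to 2039150 normalized counts. Single neutrophil markers moved: 6 rose and 6 fell with G-CSF in LysMcre-labelled cells, and 5 rose and 6 fell in floxed cells. With G-CSF present 3 were higher and 6 lower in LysMcre-labelled than in floxed cells. Of the lists for other cells, B cell markers summed to 7217 to 18057, monocyte and macrophage markers to 17774 to 25308 and 6 further lists to at most 3816 in any library. Markers of immature and cycling precursors summed to 26600 to 29145 in LysMcre-labelled G-CSF libraries and 19192 to 19999 in untreated ones, and to 25019 to 28735 in floxed G-CSF libraries and 14789 to 22259 in untreated ones. Of these 13 precursor markers 8 rose and 2 fell with G-CSF in LysMcre-labelled cells, and 9 rose and 2 fell in floxed cells, so they moved with each G-CSF result below. Of 8 monocyte and macrophage markers 4 rose and 2 fell in LysMcre-labelled cells, and 5 rose and 2 fell in floxed cells. T and NK cell markers, of which 1 of 6 fell in each genotype, summed to 145 to 182 in LysMcre-labelled G-CSF and 419 to 457 in untreated libraries, and to 170 to 215 in floxed G-CSF and 352 to 385 in untreated ones. The fall was that of Cd3d, with 42.8, 33.0 and 34.4 normalized counts in LysMcre-labelled G-CSF and 269, 285 and 332 in untreated libraries. In floxed cells Cd3d had 58.5, 52.5 and 43.3 with G-CSF and 246, 235 and 248 without. Of 6 stroma and endothelium markers 1 rose and 1 fell in LysMcre-labelled cells, and 2 rose and 2 fell in floxed cells. They summed to 1353 to 1578 in LysMcre-labelled G-CSF and 828 to 940 in untreated libraries. In floxed cells the sums overlapped, at 780 to 849 with G-CSF and 734 to 884 without. The LysMcre-labelled rise was that of Pecam1, with 1366, 1385 and 1227 normalized counts with G-CSF and 651, 695 and 691 without, while Col1a1 fell. The part of any of these marker lists in the results was not tested.

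Levels were compared between genes as normalized counts per kilobase (kb) of the principal transcript, averaged over all 12 libraries. The median of the 78 genes was 113 per kb, and the range was 12.6 to 9197. Mrpl33, the counterpart of bacterial L33, was the highest at 9197 per kb, 7.90 times Mrps21 at 1165. Mrpl52, Mrpl24 and Mrpl43, all large subunit proteins, followed at 996, 934 and 645 per kb. The place of Mrpl52 came from the G-CSF libraries. It averaged 2574 per kb in LysMcre-labelled and 1081 in floxed G-CSF libraries, but 176 and 153 in the untreated ones. Over all annotated exons its rank was 8. The lowest were the small subunit genes Mrps25 at 12.6, Mrps5 at 22.7 and Mrps6 at 23.1 per kb, and the large subunit genes Mrpl47 at 16.6 and Mrpl35 at 19.1 per kb. The rank of Mrpl33 depends on the length used: its principal transcript has 478 bases and its annotated exons together have 7326, and over all exons Mrps21 came first at 769 per kb and Mrpl33 second at 600.1. The median level without length correction was 205 normalized counts for the 78 genes and 269 for all tested genes.

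**Figure D1:**
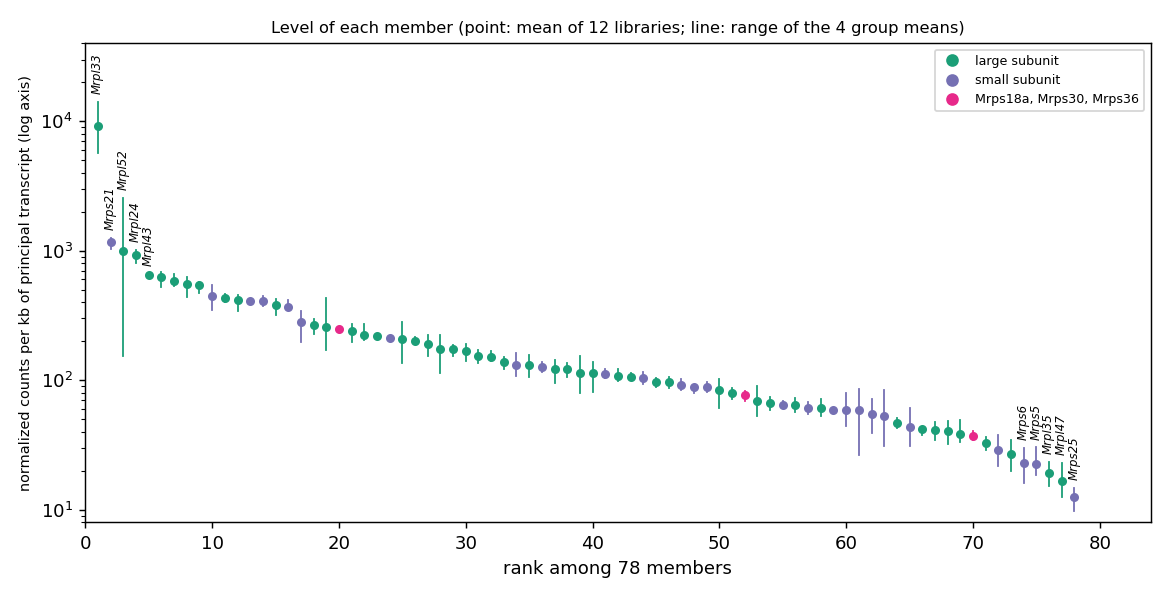
Level of each of the 78 genes in normalized counts per kb of principal transcript on a log axis, in order of level. Points are means of 12 libraries and lines span the 4 group means; Mrpl33 stands highest at 9197 and Mrps25 lowest at 12.6, and the line of Mrpl52 is the longest.

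G-CSF changed single mitochondrial ribosomal protein genes in both directions in LysMcre-labelled cells, and did not move the group as a whole one way. Of the 78 genes 22 were higher, 24 were lower and 32 did not pass an adjusted p of 0.05 (limma on log2 of the normalized count plus 1). That is 59.0% of the members, and of all 13915 tested genes 62.6% passed, 31.1% higher and 31.6% lower. The members' median log2 difference was 0.06, with a range of -1.67 to 3.90, and that of all genes was 0.00. Scaled to equal library totals, which moved the median of all genes to -0.26, 12 members were higher and 36 lower and their median was -0.20, still 0.06 above that of all genes. The groups did not overlap in 47 of 78 members, where 67.6% of all genes did not. A change of 2-fold or more passed in 6 members (7.69%), where 24.7% of all genes had one: Mrpl52, Mrps28, Mrpl33 and Mrpl54 were higher, and Mrps35 and Mrpl23 lower. In bulk RNA, fewer cells of a type and less RNA per cell cannot be told apart.

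Mrpl52, a mitochondria-specific protein of the large subunit, had by far the largest rise. It had 1069, 1113 and 1046 normalized counts in LysMcre-labelled G-CSF libraries and 99.9, 61.0 and 59.4 in untreated ones, and the groups lay far apart. On the log2 scale it rose by 3.90 ± 0.24 (SE, limma, adjusted p = 9.38e-10), 14.9-fold. In floxed cells it had 437, 468 and 451 normalized counts with G-CSF and 40.5, 94.2 and 57.4 without, again without overlap, a log2 difference of 2.88 ± 0.24 (SE, adjusted p = 6.59e-08, limma). The gene lies at chr14:54426909-54429756 (mm10, plus strand), and the next gene in the table on the same strand, Mmp14, begins 1856 bases downstream and also rose with G-CSF, by 2.35 in LysMcre-labelled and 1.87 in floxed cells on the log2 scale.

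Mrpl33 contributed the largest number of reads. It had 6600.5, 6384 and 7213 normalized counts in LysMcre-labelled G-CSF libraries against 2831, 2681 and 2599 in untreated ones, and 5255, 5383 and 5084 in floxed G-CSF libraries against 2911, 2955 and 2859 in untreated ones. The G-CSF and untreated libraries did not overlap in either genotype, and replicates lay close together. The log2 difference was 1.31 ± 0.05 in LysMcre-labelled (SE, limma, adjusted p = 1.11e-11) and 0.85 ± 0.05 in floxed cells (adjusted p = 4.37e-09).

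Mrpl54 is another mitochondria-specific protein of the large subunit. It had 285, 230.0 and 261 normalized counts in LysMcre-labelled G-CSF libraries against 98.9, 103 and 118 in untreated ones, and 142, 169.9 and 168 in floxed G-CSF libraries against 108, 95.1 and 105 in untreated ones. All G-CSF libraries exceeded all untreated ones of their genotype, and the LysMcre-labelled G-CSF libraries were the highest of all. The log2 difference was 1.27 ± 0.12 in LysMcre-labelled cells (SE, limma, adjusted p = 2.04e-07) and 0.63 ± 0.12 in floxed cells (adjusted p = 0.000458).

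Mrps28, the small subunit's relative of bacterial S1, was a weakly expressed gene with a clear rise. It had 75.1, 68.4 and 53.7 normalized counts in LysMcre-labelled G-CSF libraries against 19.98, 27.5 and 26.9 in untreated ones, and 42.2, 52.5 and 56.5 in floxed G-CSF libraries against 24.5, 24.0 and 24.5 in untreated ones. The groups did not overlap in either genotype, and the log2 difference was 1.37 ± 0.20 in LysMcre-labelled (SE, limma, adjusted p = 2.42e-05) and 1.01 ± 0.20 in floxed cells (adjusted p = 0.00064). Its annotated start lies 1675 bases past the end of Tpd52 on the same strand. Tpd52 averaged 38760 ± 1974 normalized counts in LysMcre-labelled G-CSF libraries and 5425 ± 792 in untreated ones, and 26020 ± 1216 in floxed G-CSF libraries and 5116 ± 368 in untreated ones (SD, n = 3 each). Whether reads past the end of Tpd52 were counted for Mrps28 was not tested.

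Mrps35, a mitochondria-specific protein of the small subunit, had the largest fall. It had 104, 106 and 121 normalized counts in LysMcre-labelled G-CSF libraries against 331, 376 and 353 in untreated ones, and 151, 160.2 and 159 in floxed G-CSF libraries against 367, 380.3 and 322 in untreated ones. The G-CSF libraries of each genotype lay below all untreated ones. The log2 difference was -1.67 ± 0.10 in LysMcre-labelled (SE, limma, adjusted p = 6.56e-10), 3.18-fold lower, and -1.18 ± 0.10 in floxed cells (adjusted p = 8.18e-08).

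Mrpl23 encodes a protein at the mouth of the exit tunnel. It had 98.2, 104 and 95.6 normalized counts in LysMcre-labelled G-CSF libraries against 199.8, 217 and 202 in untreated ones, and 121, 115 and 92.3 in floxed G-CSF libraries against 189, 224 and 190.1 in untreated ones. The groups did not overlap in either genotype. The log2 difference was -1.05 ± 0.12 in LysMcre-labelled (SE, limma, adjusted p = 1.67e-06) and -0.87 ± 0.12 in floxed cells (adjusted p = 1.93e-05). The pseudogene Mrpl23-ps1, which is no member, also fell, to 6.68 ± 4.19 normalized counts in LysMcre-labelled G-CSF libraries against 105 ± 6.55 in untreated ones (SD, n = 3 each), and reads shared between a gene and its near copy cannot be assigned with certainty.

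Mrpl44, a large subunit protein with a ribonuclease III fold, fell by about the same amount in LysMcre-labelled cells. It had 176, 157 and 150.3 normalized counts in LysMcre-labelled G-CSF libraries against 298, 315 and 349 in untreated ones, and 221, 216 and 214 in floxed G-CSF libraries against 285, 323 and 283 in untreated ones. The G-CSF libraries were all below the untreated ones, and the LysMcre-labelled G-CSF libraries were the lowest. The log2 difference was -0.99 ± 0.09 in LysMcre-labelled (SE, limma, adjusted p = 2.17e-07) and -0.45 ± 0.09 in floxed cells (adjusted p = 0.00102). Mrpl44 shares 126 annotated exon bases with Wdfy1 on the opposite strand, which fell by 1.11 and 0.91 on the log2 scale.

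**Figure D2:**
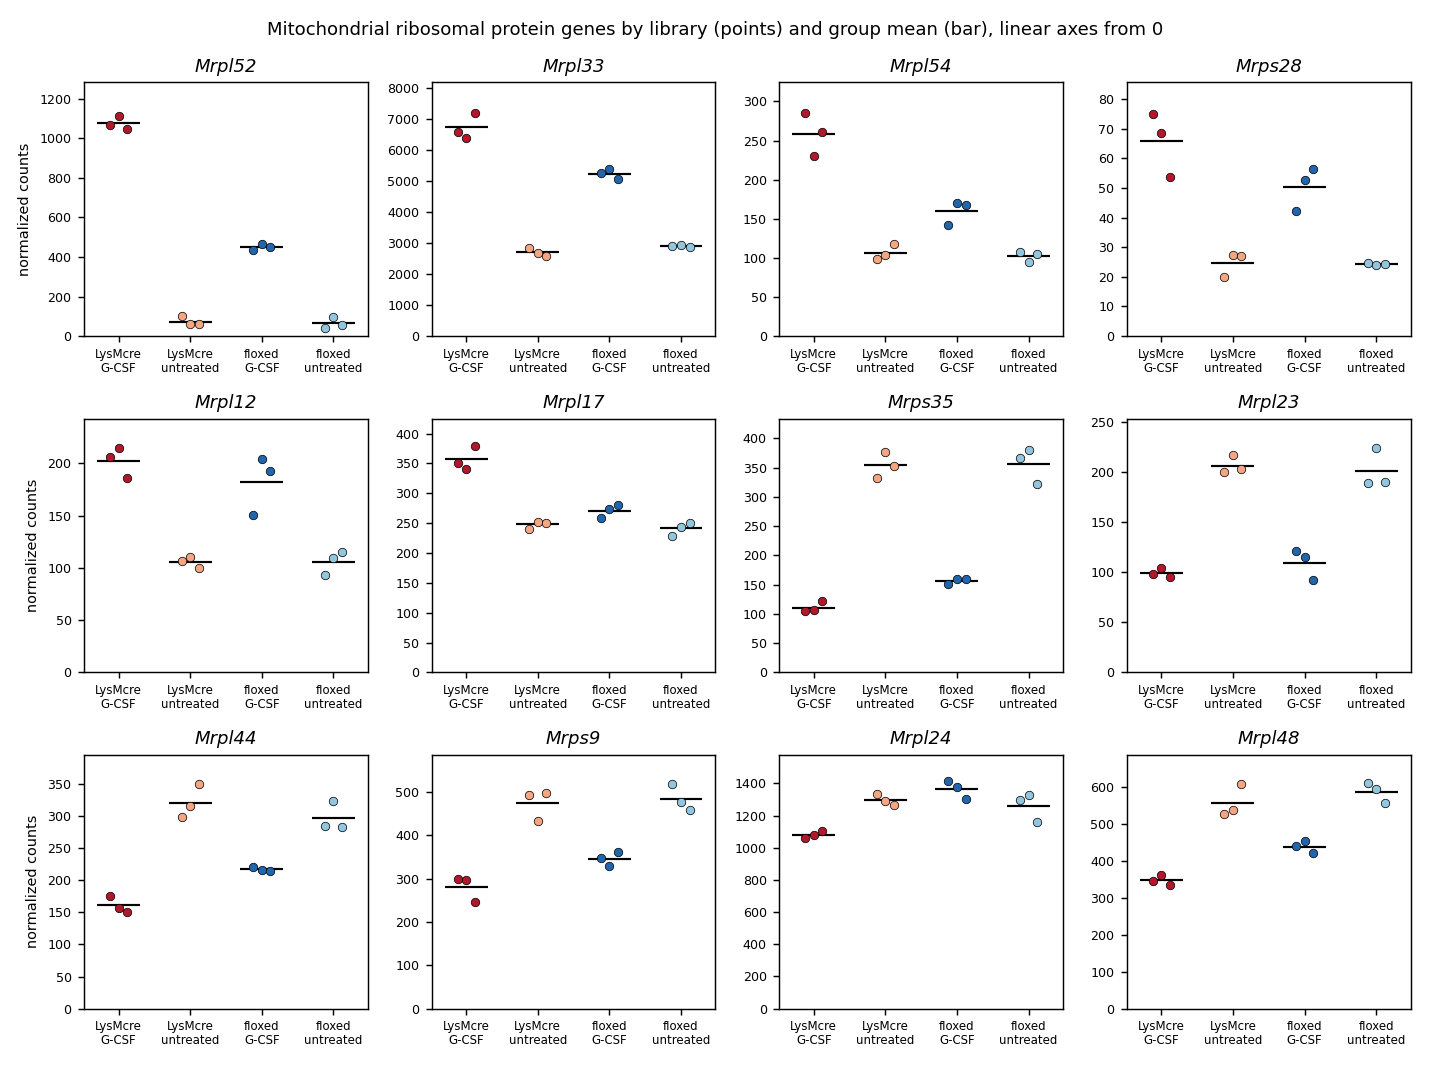
Normalized counts of 12 mitochondrial ribosomal protein genes in each library (points) with the group mean (bar), on linear axes from 0, for LysMcre-labelled and floxed cells with G-CSF and untreated. Mrpl52 reaches 1046 to 1113 in LysMcre-labelled G-CSF libraries against 59.4 to 99.9 in untreated ones, and Mrps35 lies at 104 to 121 against 331 to 376.

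Promoters of the largest rise and the largest fall for which RefSeq gives a window, and of a rising and a falling gene that hold a motif of a factor tied to mitochondrial genes, are shown to set the letters around the start beside the response. Each runs 5′ to 3′ on the gene's strand from 250 bases before the RefSeq start to 50 after it (GRCm38.p6), and capitals mark motif matches. For Mrpl48, 1 of 4 windows held a match and is shown, and it lies inside the annotated gene (chr7:100545751-100608301, minus strand). The Mrpl33 and Mrpl23 windows also lie inside their annotated genes. The windows are chr14:54426659-54426958 (plus strand) for Mrpl52, chr5:31613701-31614000 (plus strand) for Mrpl33, chr7:142532782-142533081 (plus strand) for Mrpl23 and chr7:100583081-100583380 (minus strand) for Mrpl48.
Mrpl52 (rose most): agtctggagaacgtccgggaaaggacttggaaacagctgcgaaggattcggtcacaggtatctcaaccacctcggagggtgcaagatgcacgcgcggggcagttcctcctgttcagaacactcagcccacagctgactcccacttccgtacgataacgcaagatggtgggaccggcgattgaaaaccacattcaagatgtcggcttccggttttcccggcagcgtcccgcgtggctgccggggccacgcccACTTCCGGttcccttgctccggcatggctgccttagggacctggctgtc
Mrpl33 (rose): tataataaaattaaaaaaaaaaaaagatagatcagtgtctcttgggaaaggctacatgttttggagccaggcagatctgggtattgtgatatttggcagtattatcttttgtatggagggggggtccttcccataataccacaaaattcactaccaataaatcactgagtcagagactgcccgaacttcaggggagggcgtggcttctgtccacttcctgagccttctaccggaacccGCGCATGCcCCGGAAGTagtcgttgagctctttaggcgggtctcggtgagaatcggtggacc
Mrpl23 (fell): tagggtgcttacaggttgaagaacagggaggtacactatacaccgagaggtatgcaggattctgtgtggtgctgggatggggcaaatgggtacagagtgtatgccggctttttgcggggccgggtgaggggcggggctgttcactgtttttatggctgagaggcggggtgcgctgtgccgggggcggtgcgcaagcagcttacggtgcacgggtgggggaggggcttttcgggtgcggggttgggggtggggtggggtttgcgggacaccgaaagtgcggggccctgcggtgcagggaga
Mrpl48 (fell): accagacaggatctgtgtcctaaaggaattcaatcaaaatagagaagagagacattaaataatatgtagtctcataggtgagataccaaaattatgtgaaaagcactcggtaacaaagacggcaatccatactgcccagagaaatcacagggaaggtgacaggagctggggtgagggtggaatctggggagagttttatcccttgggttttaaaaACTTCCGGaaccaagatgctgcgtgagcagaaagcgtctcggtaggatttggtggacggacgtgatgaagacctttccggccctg

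Motifs were searched on both strands of these windows, which RefSeq gave for 69 of the 78 genes. The NRF1 motif GCGCATGC stood in 11.6% of the members' promoters, 5.99% of those of the tested genes and 3.05% of all promoters in the table. For the ETS family motif CCGGAAGT these shares were 17.4%, 9.37% and 4.31%, for the YY1 motif AAGATGGC they were 17.4%, 5.44% and 3.19%, and for the E-box CACGTG they were 7.25%, 11.7% and 8.09%. The motifs do not share bases in the windows shown, and 31 of the 69 members held at least 1 of them in a window. By response to G-CSF in LysMcre-labelled cells, the ETS motif stood in 6 of 19 promoters of members that rose, 3 of 22 of those that fell and 3 of 28 of the others. The NRF1 motif stood in 3, 2 and 3 of these promoters, the YY1 motif in 4, 2 and 6 and the E-box in 1, 1 and 3. A match describes letters in a window and not a bound site.

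Both subunits, and both the proteins with a bacterial counterpart and the mitochondria-specific ones, held rises and falls in LysMcre-labelled cells. Of the 49 large subunit genes 14 (28.6%) rose and 18 (36.7%) fell, with a median log2 difference of -0.03. Of the 26 small subunit genes 8 (30.8%) rose and 6 (23.1%) fell (median 0.14). Of all tested genes 31.1% rose and 31.6% fell. Of the 48 proteins with a bacterial counterpart 15 rose and 16 fell, and of the 29 mitochondria-specific ones 7 rose and 8 fell. Mrps30, Mrps18a and Mrps36, the genes whose name and place differ, did not pass, with log2 differences of -0.11, -0.04 and 0.22.

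The stalk of the large subunit was split, with 2 genes that rose and 1 that fell. Mrpl12, the stalk protein that meets translation factors, had 206, 215 and 186 normalized counts in LysMcre-labelled G-CSF libraries against 106, 110.03 and 100.3 in untreated ones, and 151, 204 and 193 in floxed G-CSF libraries against 92.7, 109.6 and 115 in untreated ones. Groups did not overlap, and the log2 difference was 0.93 ± 0.13 in LysMcre-labelled (SE, limma, adjusted p = 1.48e-05) and 0.78 ± 0.13 in floxed cells (adjusted p = 0.000141). Mrpl11, at the stalk base, averaged 106 ± 11.6 in LysMcre-labelled G-CSF libraries and 60.6 ± 3.43 in untreated ones (SD, n = 3 each), and rose by 0.79 in LysMcre-labelled and 0.38 in floxed cells. Mrpl10, the protein that holds Mrpl12 in the stalk, went the other way: it averaged 745 ± 51.0 in LysMcre-labelled G-CSF libraries and 1035 ± 91.0 in untreated ones, and fell by 0.47 in LysMcre-labelled and by 0.28 in floxed cells. Around the exit tunnel 3 of 6 genes rose and 2 fell in LysMcre-labelled cells, among them the rising Mrpl47 and Mrpl17 and the falling Mrpl23 and Mrpl24. Of the 7 central protuberance genes none rose and 3 fell, with Mrpl48 at -0.68 ± 0.07 (SE, limma, adjusted p = 9.09e-07) the lowest. Of all tested genes 31.1% rose and 31.6% fell in LysMcre-labelled cells, so both directions were common.

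The other members with large rises in LysMcre-labelled cells were Mrpl47 (0.87 ± 0.19), Mrps18b, 1 of the 3 relatives of bacterial S18 (0.86 ± 0.20), and Mrps2, the counterpart of bacterial S2 (0.84 ± 0.15; log2 differences ± SE). Mrps2 averaged 126 ± 16.7 normalized counts in LysMcre-labelled G-CSF libraries and 70.0 ± 6.00 in untreated ones, against 99.8 ± 14.2 and 65.0 ± 3.36 in floxed cells with and without G-CSF (SD, n = 3 each). Among the falls, Mrps9, the counterpart of bacterial S9, averaged 281 ± 29.4 in LysMcre-labelled G-CSF libraries and 474 ± 36.2 in untreated ones, a log2 difference of -0.76 ± 0.09 (SE, limma, adjusted p = 2.95e-06). Mrpl58, a peptidyl-tRNA hydrolase built into the large subunit that can rescue stalled ribosomes, had 158, 143 and 171 normalized counts in LysMcre-labelled G-CSF libraries against 209, 248 and 302 in untreated ones and fell by 0.67. Mrpl1, the protein of the L1 stalk beside the exit of spent tRNAs, fell by 0.60, and Mrpl49, a mitochondria-specific large subunit protein, fell by 0.57.

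In floxed cells 15 of the 78 genes were higher and 16 lower with G-CSF, 39.7%, where 48.8% of all tested genes passed, 24.1% higher and 24.6% lower. The median log2 difference was 0.03, against 0.00 for all genes, and 3 members (3.85%) passed with 2-fold or more, where 14.2% of all genes did: Mrpl52, Mrps28 and Mrps35. The groups did not overlap in 46 of 78 members and in 56% of all genes. Scaled to equal totals, 6 members were higher and 20 lower. The number of higher members rested on single libraries: it was 7 without floxed G-CSF replicate 2 and 8 without floxed untreated replicate 1. Large subunit genes rose in 8 and fell in 11 of 49 cases, and small subunit genes rose in 7 and fell in 5 of 26.

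Other members among the larger changes in floxed cells had these values. Mrps15, the counterpart of bacterial S15, averaged 328 ± 19.2 normalized counts in floxed G-CSF libraries and 505 ± 52.2 in untreated ones, a log2 difference of -0.62 ± 0.09 (SE, limma, adjusted p = 5.81e-05), against -0.49 in LysMcre-labelled cells. Mrpl9, the counterpart of bacterial L9, fell by 0.43 in floxed and by 0.30 in LysMcre-labelled cells. Mrps9 averaged 346 ± 15.7 normalized counts in floxed G-CSF libraries and 485 ± 31.0 in untreated ones (SD, n = 3 each) and fell by 0.48, Mrpl1 fell by 0.47 and Mrpl58 by 0.46. Mrps22 and Mrps27, mitochondria-specific proteins of the small subunit, rose by 0.54 and 0.55 in floxed cells, and by 0.77 each in LysMcre-labelled cells. Both floxed calls were close to the threshold (limma, adjusted p = 0.0375 and 0.0275): Mrps22 lost its call without floxed G-CSF replicate 2 or 3 or floxed untreated replicate 1 or 2 (adjusted p of 0.0591 to 0.194), and Mrps27 without floxed G-CSF replicate 1 or 2 or floxed untreated replicate 1 or 3 (0.051 to 0.0801). Scaled to equal totals neither passed (0.106 and 0.0778), Mrps22 also did not with the 2 floxed groups alone (0.0579), and Mrps27 not by DESeq2 (0.0511).

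The responses of the 2 genotypes were close in order. They were measured against separate untreated libraries. Across the 78 genes the log2 responses correlated with Pearson's r = 0.956 and Spearman's rho = 0.922, as a description over genes that share libraries, against 0.911 and 0.857 over all 13915 genes, and without Mrpl52 r was 0.927. Both genotypes called 28 members, 12 higher and 16 lower, and all 28 had the same sign. LysMcre-labelled cells alone called 18 members, floxed cells alone called 3 (Mrpl20, Mrps24 and Mrps25), and 29 were called in neither. More calls in LysMcre-labelled cells were also seen over all genes. Of the 13915, 8717 were called in LysMcre-labelled cells, 6784 in floxed cells and 6180 in both. Of the 28 shared calls 26 (92.9%) had the larger change in LysMcre-labelled cells, and of the 6180 genes called in both genotypes 98.9% had the same sign and 83.9% the larger change there. Whether single members differed in response is given by the test of the difference below.

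**Figure D3:**
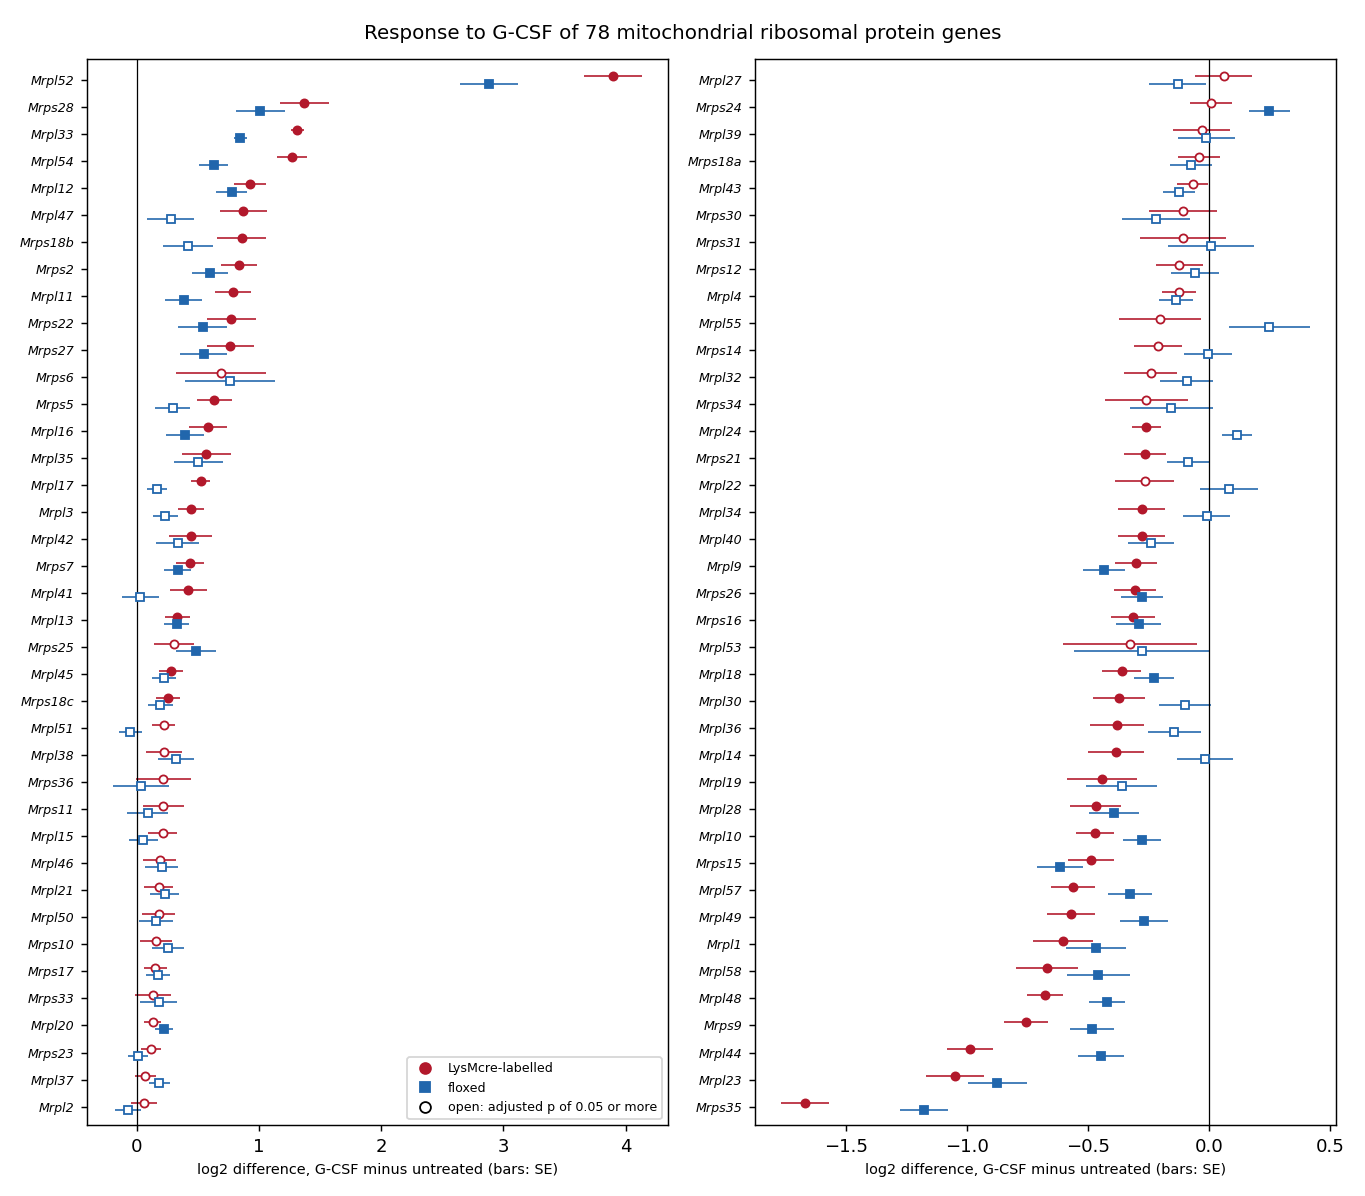
Log2 difference between G-CSF and untreated libraries (x axis, bars are SE) for each of the 78 genes in LysMcre-labelled cells (red circles) and floxed cells (blue squares), ordered by the LysMcre-labelled response; open symbols did not pass an adjusted p of 0.05. Mrpl52 stands at 3.90 and 2.88 and Mrps35 at -1.67 and -1.18, and the panels have different x ranges.

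With G-CSF present, 13 members differed between the genotypes. In LysMcre-labelled against floxed cells, 5 were higher and 8 lower, 16.7% of the members, where 36% of all tested genes passed (17.1% higher and 18.9% lower). The members' median log2 difference was -0.0049, with a range of -0.50 to 1.25, and 10 of the 13 are named for the large subunit, as are 49 of the 78. The groups did not overlap in 25 of 78 members and in 45.5% of all genes. Some markers of other cells also moved here. B cell markers, of which 1 of 8 was higher and none lower, summed to 10458 to 17154 in LysMcre-labelled and 7217 to 10809 in floxed G-CSF libraries. Of the B cell sums Ighm alone had 14076, 6512 and 7663 against 3772, 5533 and 6413. The median log2 difference of the 8 B cell markers was -0.12. Stroma and endothelium markers, of which 2 of 6 were higher and none lower, summed to 1353 to 1578 and 780 to 849. Of these sums Pecam1 alone had 1366, 1385 and 1227 against 706, 700 and 697. The part of these markers in the result was not tested. Scaled to equal totals, which moved the median of all genes to -0.13, 4 were higher and 16 lower. Without replicate 3 of the LysMcre-labelled G-CSF group the number of lower members was 4.

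The higher members were Mrpl52, Mrpl54, Mrps5, Mrpl17 and Mrpl33. Mrpl52 averaged 1076 ± 34.4 normalized counts in LysMcre-labelled and 452 ± 15.5 in floxed G-CSF libraries (SD, n = 3 each), a log2 difference of 1.25 ± 0.24 (SE, limma, adjusted p = 0.000654). Mrpl54 averaged 259 ± 27.8 and 159.8 ± 15.5, a difference of 0.69 ± 0.12 (adjusted p = 0.000349), and the groups of both genes did not overlap. Mrpl17, an exit tunnel protein, had 351, 341 and 379 normalized counts in LysMcre-labelled and 258, 274 and 281 in floxed G-CSF libraries, again without overlap, a difference of 0.40 ± 0.08 (limma, adjusted p = 0.00104). Mrpl33 differed by 0.36 ± 0.05 (adjusted p = 9.85e-05). Mrps5, the counterpart of bacterial S5, differed by 0.42 ± 0.14 (adjusted p = 0.0305) and lost its call without LysMcre-labelled G-CSF replicate 1 or 2 or floxed G-CSF replicate 1 (adjusted p of 0.0765 to 0.142), with equal totals (0.144), by DESeq2 (0.0603) and with the 2 G-CSF groups alone (0.0556).

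The lower members included both genes that fell most with G-CSF and genes that did not fall in floxed cells. Mrps35 averaged 110.5 ± 9.43 normalized counts in LysMcre-labelled and 157 ± 5.28 in floxed G-CSF libraries (SD, n = 3 each), a log2 difference of -0.50 ± 0.10 (SE, limma, adjusted p = 0.000878), and Mrpl44 differed by -0.43 ± 0.09 (adjusted p = 0.00215). Mrpl24, an exit tunnel protein, had 1059, 1080.4 and 1107 normalized counts in LysMcre-labelled and 1416, 1375 and 1301 in floxed G-CSF libraries, and every LysMcre-labelled value lay below every floxed one (-0.33 ± 0.06, limma, adjusted p = 0.000442). Mrpl48 differed by -0.33 ± 0.07 (adjusted p = 0.0022). The other 4 were less firm. Mrps9 (-0.31, adjusted p = 0.0165) lost its call without LysMcre-labelled or floxed G-CSF replicate 3 (adjusted p of 0.0582 to 0.0814), and Mrpl10 (-0.26, limma, adjusted p = 0.0177) without LysMcre-labelled G-CSF replicate 1 or 3 or floxed G-CSF replicate 1 (0.0524 to 0.0832). Mrpl30, the counterpart of bacterial L30 (-0.33, limma, adjusted p = 0.0242), lost it without LysMcre-labelled G-CSF replicate 2 or 3 or floxed G-CSF replicate 1 or 3 (0.0582 to 0.13), and with the 2 G-CSF groups alone (0.0547). Mrpl14, the counterpart of bacterial L14 (-0.32, limma, adjusted p = 0.043), had overlapping groups and lost its call without any 1 of 7 libraries: LysMcre-labelled G-CSF replicate 3, LysMcre-labelled untreated replicate 2, floxed G-CSF replicates 1 and 2 and the floxed untreated replicates (0.0501 to 0.206). It also lost it by edgeR (0.055), with quantile normalization (0.069) and with the 2 G-CSF groups alone (0.0817).

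Without G-CSF no member passed in LysMcre-labelled against floxed cells by limma, and none by edgeR's quasi-likelihood test or DESeq2 on recovered reads. Of all tested genes 16, or 0.115%, passed by limma, 0.0647% higher and 0.0503% lower. The members' log2 differences ran from -0.24 to 0.29 with a median of 0.02, and 1 member, the large subunit gene Mrpl37 (0.20 ± 0.09), had an unadjusted p under 0.05 (0.0325). Mrpl33 had 2831, 2681 and 2599 normalized counts in LysMcre-labelled and 2911, 2955 and 2859 in floxed untreated libraries, which do not overlap, and did not pass (limma, log2 difference -0.11, adjusted p = 1). Groups did not overlap in 3 of 78 members, and in 9.34% of all genes.

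**Figure D4:**
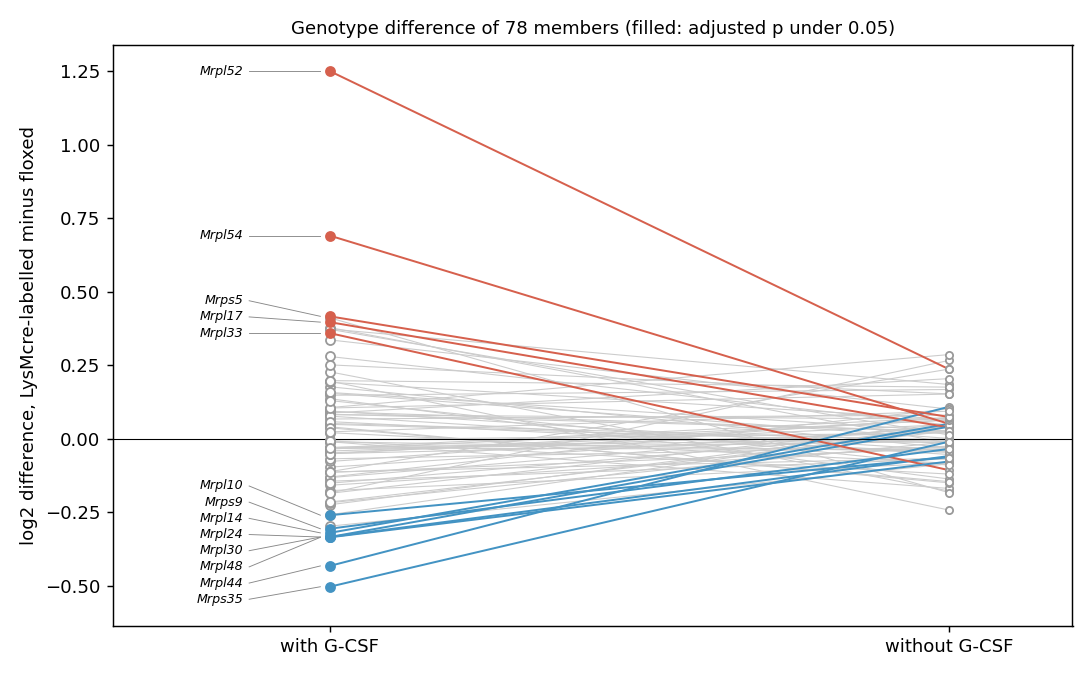
Log2 difference between LysMcre-labelled and floxed libraries (y axis) for each of the 78 genes with G-CSF (left) and without (right), joined by a line per gene; filled points and coloured lines mark the 13 members past an adjusted p of 0.05 with G-CSF, which are named. Differences span -0.50 to 1.25 with G-CSF and -0.24 to 0.29 without, where no member passed.

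The test of the difference between the 2 responses (LysMcre-labelled minus floxed) passed for 7 members, 4 higher and 3 lower, 8.97% of the members and 22.4% of all tested genes (10.9% higher and 11.5% lower). Scaled to equal totals, 1 member was higher and 11 lower. The response was larger in LysMcre-labelled cells for Mrpl52 by 1.01 ± 0.33 (SE, limma, adjusted p = 0.0411), Mrpl54 by 0.64 ± 0.17 (adjusted p = 0.0136), Mrpl33 by 0.47 ± 0.08 (adjusted p = 0.000444) and Mrpl17 by 0.36 ± 0.11 (adjusted p = 0.0324). It was more negative for Mrpl44 by 0.54 ± 0.13 (limma, adjusted p = 0.0086), Mrps35 by 0.49 ± 0.14 (adjusted p = 0.0184) and Mrpl24 by 0.38 ± 0.08 (adjusted p = 0.00475). All but Mrps35 are large subunit genes. For Mrpl24 the response was -0.26 in LysMcre-labelled cells and 0.12 in floxed cells, where it did not pass. Without any 1 of 7 libraries (LysMcre-labelled G-CSF replicate 3, LysMcre-labelled untreated replicates 2 and 3, floxed G-CSF replicates 1 and 2, and floxed untreated replicates 2 and 3) only 2 members were higher. The calls of Mrpl52 and Mrpl17 were close to the threshold. Without each single library in turn, their log2 differences ran from 0.696 to 1.295 and from 0.314 to 0.394. Mrpl52 kept its call only without LysMcre-labelled or floxed untreated replicate 1 (adjusted p without each single library, 0.00491 to 0.099). Mrpl17 lost its call without any 1 of 8 libraries (0.0516 to 0.078), which were those 7 and LysMcre-labelled untreated replicate 1. Mrps35 lost its call without LysMcre-labelled untreated replicate 2 or floxed untreated replicate 3 (0.0551 and 0.051). With equal totals Mrpl54 (0.47, adjusted p = 0.065), Mrpl52 (0.0959) and Mrpl17 (0.271) did not pass, and Mrpl17 did not by DESeq2 (0.0717) or with a block for each genotype and replicate number (0.0554).

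Summed over all 78 genes the transcripts reached 26178, 25065 and 25267 normalized counts in LysMcre-labelled G-CSF libraries, 21660 to 22612 in LysMcre-labelled untreated, 23572 to 24534 in floxed G-CSF and 22009 to 22380 in floxed untreated libraries. The G-CSF libraries lay above the untreated ones in both genotypes on this scale. As a share of the library total the sums were 0.107%, 0.101% and 0.0979% in LysMcre-labelled G-CSF and 0.106%, 0.104% and 0.107% in untreated libraries, and 0.0993%, 0.106% and 0.107% in floxed G-CSF and 0.101%, 0.106% and 0.101% in untreated ones. On that scale the groups overlapped in both genotypes, and the LysMcre-labelled mean was lower with G-CSF (0.102% ± 0.00438 against 0.106% ± 0.00126; SD, n = 3 each). Without Mrpl33 the sums averaged 18771 ± 765 normalized counts in LysMcre-labelled G-CSF and 19344 ± 607 in untreated libraries, and 18724 ± 371 in floxed G-CSF and 19244 ± 158 in untreated ones. Without both Mrpl33 and Mrpl52 they averaged 17695 ± 758 in LysMcre-labelled G-CSF and 19270 ± 624 in LysMcre-labelled untreated libraries, and 18272 ± 358 in floxed G-CSF and 19180 ± 132 in floxed untreated ones (SD, n = 3 each). Small subunit genes summed to 5291 ± 263 in LysMcre-labelled G-CSF and 5622 ± 115 in untreated libraries, and large subunit genes to 19836 ± 346 and 16041 ± 379. As shares of the total these were 0.0212% and 0.0269% for the small and 0.0793% and 0.0768% for the large subunit.

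Cytosolic ribosomal protein genes and nuclear-encoded respiratory chain subunits were counted in the same fit. Of 79 cytosolic ribosomal protein genes 13 rose and 11 fell with G-CSF in LysMcre-labelled cells (30.4%), and of 76 respiratory chain genes 19 rose and 25 fell (57.9%), beside 59.0% of the mitochondrial ribosomal protein genes and 62.6% of all genes. In floxed cells 11 cytosolic ribosomal protein genes rose and 1 fell, and 9 respiratory chain genes rose and 13 fell. With G-CSF present, LysMcre-labelled cells had 1 higher and 5 lower cytosolic ribosomal protein genes and 4 higher and 15 lower respiratory chain genes. Of all tested genes 24.1% rose and 24.6% fell in floxed cells, and 17.1% were higher and 18.9% lower between genotypes with G-CSF. No test compared these groups of genes with each other.

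**Figure D5:**
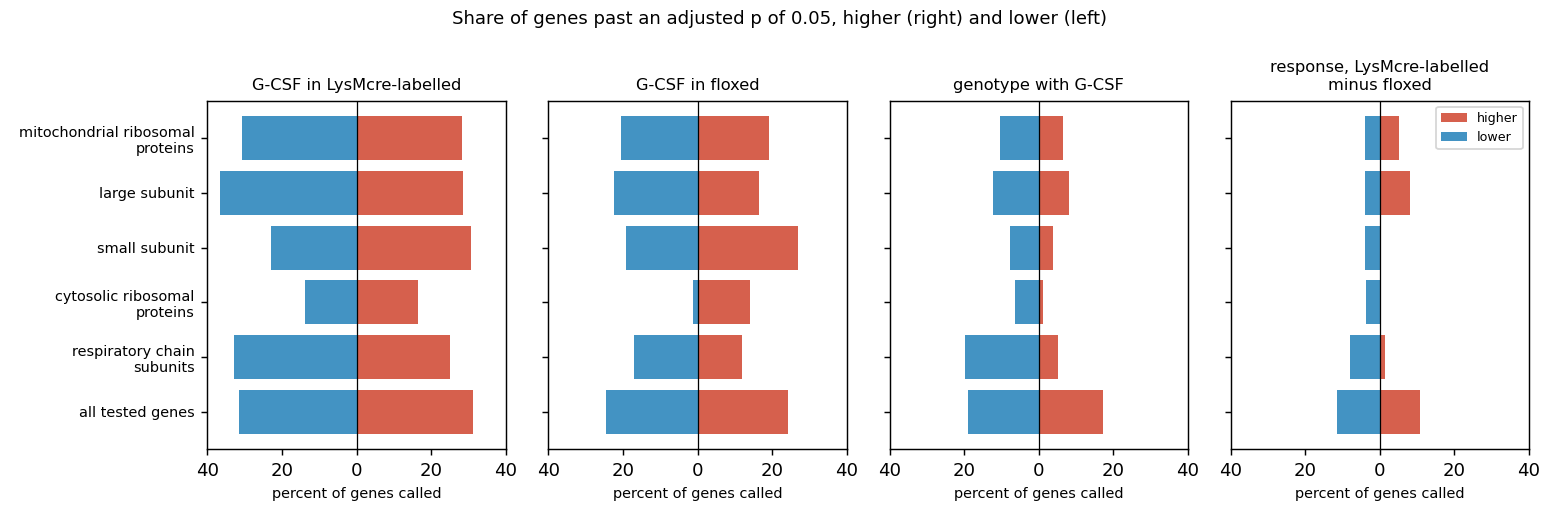
Percent of genes past an adjusted p of 0.05, higher (red, right of 0) and lower (blue, left of 0), for 4 comparisons (panels) and 6 sets of genes. Mitochondrial ribosomal protein genes stood at 59.0% with G-CSF in LysMcre-labelled cells, all tested genes at 62.6% and cytosolic ribosomal protein genes at 30.4%.

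Among 29 measured assembly and rRNA modification factors, 7 rose and 10 fell with G-CSF in LysMcre-labelled cells, and 6 rose and 6 fell in floxed cells. For this and the further role lists, 31.1% of all tested genes rose and 31.6% fell in LysMcre-labelled cells. In floxed cells these shares were 24.1% and 24.6%. Ddx28, an RNA helicase of large subunit assembly, rose by 3.30 ± 0.09 in LysMcre-labelled (SE, limma, adjusted p = 1.28e-13) and 2.63 in floxed cells. It shares 72 exon bases with Dus2 on the opposite strand, which rose by 2.53 and 1.57. C1qbp, a matrix protein tied to mitochondrial translation, rose by 1.88 ± 0.15, and Malsu1, which binds the large subunit during assembly, rose by 1.58 ± 0.11. Rbfa, a ribosome binding factor of small subunit maturation, fell by 2.07 ± 0.06 in LysMcre-labelled and by 1.40 in floxed cells. With G-CSF present 6 of the 29 were higher and 2 lower in LysMcre-labelled than in floxed cells, where 17.1% of all tested genes were higher and 18.9% lower.

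Of 5 measured ribosomal proteins outside the naming rule, Chchd1 rose (0.51) and Aurkaip1 fell (-0.75) with G-CSF in LysMcre-labelled cells, both small subunit proteins. Of 13 translation factors 2 rose and 3 fell: Oxa1l, which inserts new proteins into the inner membrane, fell by 0.73 ± 0.07, the initiation factors Mtif3 and Mtif2 fell by 0.49 and 0.43, and the elongation factor Gfm1 rose by 0.48. In floxed cells none rose and 2 fell. Among 22 genes for mitochondrial aminoacyl-tRNA synthesis 6 rose and 5 fell, led by the arginyl-tRNA synthetase Rars2 (1.05 ± 0.11 in LysMcre-labelled and 1.09 in floxed cells) and the threonyl-tRNA synthetase Tars2 (0.70), with Qrsl1, a subunit of the glutamine amidotransferase, at 0.62 and the isoleucyl-tRNA synthetase Iars2 at -0.48.

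Of 13 measured chaperones, proteases and RNA binding proteins of the organelle 9 rose and 1 fell in LysMcre-labelled cells, and 4 rose and 1 fell in floxed cells. In all, 76.9% passed in LysMcre-labelled and 38.5% in floxed cells, where 62.6% and 48.8% of all tested genes did. Hspa9, the matrix Hsp70, rose by 1.54 ± 0.10 in LysMcre-labelled (SE, limma, adjusted p = 2.44e-09) and 0.92 in floxed cells. The chaperonin pair Hspd1 and Hspe1 rose by 1.06 and 0.86 in LysMcre-labelled and 0.68 and 0.73 in floxed cells. Hspd1 and Hspe1 share 112 exon bases on opposite strands. Tbrg4, an RNA binding protein of the FASTK family, fell by 1.96 ± 0.08 in LysMcre-labelled and by 1.29 in floxed cells. Of 18 genes of mitochondrial transcription and RNA processing 3 rose and 4 fell in LysMcre-labelled cells, with the DNA polymerase subunit Polg2 at -1.39, the RNA-degrading enzyme Pnpt1 at 0.95 and the tRNA-processing enzyme Elac2 at 0.48.

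Of 17 transcription factors tied to mitochondrial genes, 9 rose and 5 fell with G-CSF in LysMcre-labelled cells, and 6 rose and 5 fell in floxed cells. In all, 82.4% passed in LysMcre-labelled and 64.7% in floxed cells, where 62.6% and 48.8% of all tested genes did. Myc, which activates genes of ribosome production, rose by 2.10 ± 0.14 (SE, limma, adjusted p = 1.94e-09) in LysMcre-labelled and 1.97 in floxed cells, while its partner Max fell by 1.12 and 0.43. Atf4 and Atf5, factors of the stress response to faulty mitochondria, rose by 0.66 and 1.78 in LysMcre-labelled and 0.53 and 1.49 in floxed cells.

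RNAs encoded by the mitochondrial genome itself were chosen for a list after the data had been seen. Its ribosomal RNAs are the other component of the ribosome. Both mitochondrial ribosomal RNAs rose: mt-Rnr1 by 0.50 ± 0.13 and mt-Rnr2 by 0.58 ± 0.15 in LysMcre-labelled cells (SE, limma, adjusted p = 0.00324 and 0.00319), and by 0.35 and 0.42 in floxed cells. Together they had 24262, 17741 and 21172 normalized counts in LysMcre-labelled G-CSF libraries against 14169, 15317 and 12960 in untreated ones, and 16017, 23466 and 16076 in floxed G-CSF libraries against 14112, 15622 and 11856 in untreated ones. The G-CSF libraries of each genotype were above its untreated ones and varied more among themselves. As shares of the library total they overlapped: 0.0988%, 0.0717% and 0.0820% in LysMcre-labelled G-CSF against 0.0691%, 0.0730% and 0.0612% in untreated libraries, and 0.0669%, 0.101% and 0.0729% in floxed G-CSF against 0.0646%, 0.0737% and 0.0544% in untreated ones. Scaled to equal totals neither RNA passed in LysMcre-labelled cells (limma, mt-Rnr1 0.24, adjusted p = 0.14, and mt-Rnr2 0.32, adjusted p = 0.0803) or in floxed cells (0.25, adjusted p = 0.143, and 0.32, adjusted p = 0.096). Of the 13 mitochondrially encoded messenger RNAs 1 rose in LysMcre-labelled (mt-Atp8) and 2 in floxed cells (mt-Nd5 and mt-Nd6), and none fell.

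Neighbouring genes bear on several members, because the strand setting of the counting is not given in the sources used here. In the GENCODE annotation 25 of the 78 genes share exon bases with another gene of the table, and 53 have such a gene within 2000 bases. Besides the neighbours given above, Mrpl24 shares 594 exon bases with Rrnad1 (-0.43 in LysMcre-labelled and -0.25 in floxed cells with G-CSF), Mrpl48 shares 708 with Rab6a (-0.20 and -0.21), and Apba3 begins 26 bases from Mrpl54 (0.43 and 0.05; all log2 differences). If strand was not used in the counting, reads of a gene and its antisense neighbour cannot be told apart. Mrps35 shares exon bases with no gene in the table.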

How the data were processed

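RNA from sorted neutrophils was sequenced in 12 libraries, and gene-level values were deposited in 1 table of 13935 rows. The values are a signal unit, called normalized counts here: from the values themselves, the authors divided gene counts by 1 median-of-ratios size factor per library. Whole reads were recovered for 100.0% of the deposited values to within 0.01 read. The submitters' processing notes name mm10 as the build. The aligner, the read counter, its gene models and its strandedness were not given in the sources used here. The lowest row total was 121 reads, and 17 symbols stood as dates, which left them unnamed. Replicate libraries differed beyond sampling noise, the chi-square statistic lying between 3.47 and 12.3 per row. This does not show whether they came from separate animals. Each library was treated as its own sample. Depth was 19495754 to 26472118 recovered reads per library.

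Values were taken as log2(value + 1), so fold changes of low genes are understated. The 20 rows with a mean under 10 were not tested. A single limma 3.58.1 model (R 4.3.3) held all 4 groups, with a trended prior and 8 residual degrees of freedom. Two-sided tests were used, and p-values were adjusted by Benjamini-Hochberg over the 13915 genes, with calls made under 0.05. The contrasts were G-CSF in each genotype, genotype with and without G-CSF, and the difference between the 2 responses. edgeR 4.0.16 and DESeq2 1.42.0 were run on recovered reads as alternatives, beside other pseudocounts and filters on low values, equal totals, quantile normalization, the 2 groups of a contrast alone, the replicate number as a block, a block for each genotype and number (added after seeing the data) and each library left out in turn. The scripts were tested on simulated reads. There 24% to 40% of 1.3-fold and 48% to 58% of 1.5-fold changes were recovered in the 2-group comparisons. For the difference between the 2 responses these shares were 10% and 36%, so small differences can be missed. Gene positions and transcript lengths come from GENCODE (same build) and promoters from RefSeq (GRCm38.p6). Genes were named by rule: per 2-group comparison up to 8 members that rose and 8 that fell most among those past the threshold, up to 6 each for the difference, the 5 highest and 5 lowest levels per kb, and up to 4 genes per role list by p in LysMcre-labelled cells with G-CSF. Other named members were chosen after their values were seen. The members and lists were chosen with earlier results of these data known.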

Additional observations from a re-analysis of the deposited data

Results flagged for a closer look

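The response to G-CSF differed between the genotypes for 7 mitochondrial ribosomal protein genes in the test of the difference itself (limma, LysMcre-labelled minus floxed, log2). It was larger in LysMcre-labelled cells for Mrpl52 (1.013), Mrpl54 (0.6396), Mrpl33 (0.4657) and Mrpl17 (0.3578), and more negative for Mrpl44 (-0.5408), Mrps35 (-0.493) and Mrpl24 (-0.3751). In Mrpl52, Mrpl54, Mrpl33, Mrpl44 and Mrps35 both genotypes passed in the same direction, and in Mrpl17 and Mrpl24 the floxed differences of 0.17 and 0.12 did not pass.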

How the results depend on the processing

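Among 52 member calls named by the rule, 41 passed with the same direction under every alternative run for them, none reversed, and 63 of 1174 recomputed values lost the call. The 52 hold only the largest changes of each G-CSF response, and its smaller calls are outside this count. Scaling to equal totals moved the most: in LysMcre-labelled cells with G-CSF 12 members were higher and their median was -0.1992 (all genes -0.2590). In floxed cells 6 were higher with a median of -0.0584 (all genes -0.0876). With G-CSF 16 members were lower in LysMcre-labelled than in floxed cells, with a median of -0.1231 (all genes -0.1260). For the difference of responses 1 was higher and 11 lower, with a median of -0.1915 (all genes -0.1810). The cause was not tested. DESeq2 called 28 genes between genotypes without G-CSF, none a member. Leaving out 1 library gave a LysMcre-labelled median of -0.009732 (without G-CSF replicate 1) to 0.11, 7 to 17 higher members in floxed cells, 4 to 9 lower members between genotypes with G-CSF, 9 to 21 genes called between genotypes without G-CSF (10 without LysMcre-labelled untreated replicate 1, 9 without floxed untreated replicate 1), and 2 to 4 higher members for the difference of responses (2 without any 1 of 7 libraries). Deviations of same-numbered G-CSF and untreated libraries correlated at 0.214, -0.0317 and 0.0304 in LysMcre-labelled and at 0.321, 0.199 and 0.061 in floxed cells. These did not all exceed 0.1, so the numbers were not taken as pairs, and the positive floxed values are a hint from the data. With the replicate number as a block 20 members were higher and 24 lower with G-CSF in LysMcre-labelled cells, 13 and 16 in floxed cells, 6 and 8 between genotypes with G-CSF, none without, and 4 and 3 for the difference. With a block for each genotype and number, chosen after seeing the data, the counts were 22 and 24, 15 and 17, and 3 and 3 for the difference. Depth limits weak genes most: 4 members averaged under 50 normalized counts.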
